A study of Rattus norvegicus with 32 samples.

Results

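Hs6st1 encodes heparan sulfate 6-O-sulfotransferase 1, and it was followed here across normal mammary gland of rats from 6 groups. It was chosen from measured values, because its signal was low in the Cop strain, and it is 1 of 4737 genes that the array names by a single symbol. Of the 8799 probe sets on the array, 1 carried this symbol (rc_AA859740_at), so every value below comes from that probe set and no second probe set reads the gene. The groups, of 5 arrays each, were the inbred strain Cop, the F1(CopXF344) hybrid, and the inbred strains F344, ACI, BUF/N and WF, with 1 further array each for a Cop pool and an F344 pool. All samples were labelled as normal mammary gland, no treatment is named, and neither age nor sex, batch or the number of animals in a pool is given. The labels do not say that samples of a group were separate animals, so the spread behind each p-value may be technical. Cop rats are known for their resistance to mammary tumours caused by carcinogens, to which F344 rats are susceptible.

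Heparan sulfate is a chain of sugars carried by core proteins such as syndecans and glypicans on the cell surface and in the matrix. In the Golgi it is assembled by the EXT enzymes and then modified in steps: N-sulfation by the NDST enzymes, epimerization, 2-O-sulfation, and 6-O-sulfation by the HS6ST family, to which Hs6st1 belongs. The pattern of 6-O-sulfate affects how the chains bind fibroblast growth factors, VEGF and other ligands. In the mammary gland, heparan sulfate is known to take part in ductal growth and branching.

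The values are linear signals of Microarray Suite 5.0, scaled by the authors to 1 mean per array. Hs6st1 had signals of 6.5, 12.3, 8.6, 10.2 and 6.3 on the 5 Cop arrays. These were the only Hs6st1 values of the 30 single-sample arrays below the floor of 18.3, which is the 25th percentile of all values. In F1 the signals were 331.6, 284.6, 220.6, 327.9 and 252.7, and in F344 they were 569.3, 409.8, 403.4, 449.1 and 445.5. No F1 array reached the lowest F344 array, and no Cop array came near either group. In ACI the signals were 911.8, 901.1, 585.2, 520.5 and 1071.5. In BUF/N they were 545.2, 423.6, 664.3, 631.8 and 526.7, and in WF they were 385, 498.6, 686.9, 463.7 and 484.6. The ACI arrays spread widest of these strains, with arrays 1, 2 and 5 above every BUF/N and WF array and arrays 3 and 4 within their range.

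The Cop pool was at 8.1 and the F344 pool at 493.4, so each pool lay within the range of its own strain. Within an array, Hs6st1 ranked above 14.3% to 18.6% of the other probe sets in Cop, 72.4% to 79.7% in F1 and 82.5% to 86.6% in F344. In ACI, BUF/N and WF it ranked above 82.4% to 93.2% of them. Only the Cop arrays thus placed the gene among the dim probe sets.

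**Figure D1:**
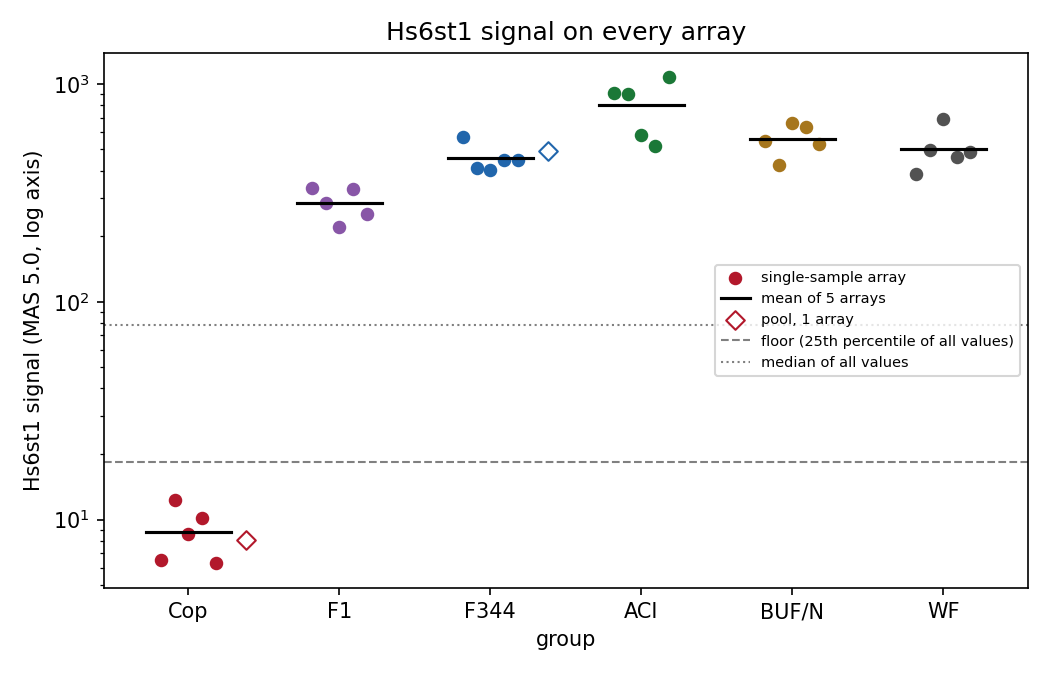
Hs6st1 signal (log axis) on every array by group, with filled points for single-sample arrays, bars for the mean of 5 arrays and open diamonds for the pools. The 5 Cop arrays and the Cop pool lie below the floor of 18.3 (dashed), and all other arrays lie above the median of all values, 78.4 (dotted).

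Group means were 8.78 ± 2.54 in Cop, 283 ± 47.9 in F1, 455 ± 66.9 in F344, 798 ± 235 in ACI, 558 ± 94.8 in BUF/N and 504 ± 111 in WF (SD, n = 5 each). From low to high the order was Cop, F1, F344, WF, BUF/N and ACI. Since the gene was chosen for its low level in Cop, the differences between Cop and the other groups are given with no test. Against the floor, Cop was at least 24.7-fold lower than F344, at least 42-fold lower than ACI, at least 30.1-fold lower than BUF/N and at least 27-fold lower than WF. On the same basis it was at least 15.3-fold lower than F1. The Cop mean was 1.93% of the F344 mean and the Cop pool was 1.64% of the F344 pool, but signals this far below the floor do not measure a level. In pieces of whole tissue, fewer cells of a type that uses the gene and less RNA per cell cannot be told apart. No probe sequences were used. Whether the gene's probe set reads RNA of Cop and F1 as well as that of the other strains was not tested.

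Across the array this pattern was found for Hs6st1 alone. For each group, probe sets were counted that lay below the floor on all 5 of its arrays while every array of the other inbred strains lay above the overall median of 78.4. Of the 8740 probe sets that are not controls, 1 met this for Cop (0.0114%), which was Hs6st1, and 0 met it for F1, F344, ACI, BUF/N or WF. This is a description of the rule that chose the gene and not a test.

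Cop arrays also differed in some of their cell type markers, with a direction that depended on the cell type. The signals of 8 measured luminal epithelial markers, such as Krt8, Krt18 and Epcam, summed to 2622 to 4836 in Cop, against 4900 to 6884 in F344. In ACI, BUF/N and WF the sums ran from 4364 to 9115, so Cop overlapped ACI only. The 10 fat cell markers, such as Plin1 and Fabp4, summed to 23834 to 30406 in Cop, against 23003 to 25633 in F344. In limma's test Plin1 (log2 change 0.85), Adrb3 (0.90) and a probe set of Lpl (0.43) were higher in Cop than in F344. The other fat cell markers did not pass, among them Fabp4 (0.06) and Pparg (-0.38). The 3 macrophage markers summed to 2251 to 2638 in Cop, against 1464 to 2315 in F344 and 1156 to 1859 in ACI, BUF/N and WF. The basal, fibroblast, endothelial and skeletal muscle sums of Cop also overlapped those of F344, so only the luminal sum did not. None of the luminal, basal, fat cell, muscle, macrophage or fibroblast markers was below the floor on all arrays of any group, so the labelled tissue carried its defining markers in each. The luminal sum averaged 3636 in Cop and 5923 in F344, and its part in the Hs6st1 level was not tested.

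The hybrid was set against 50% of the F344 level, which lies midway between F344 and no signal. F1 averaged 62.2% ± 6.23 (SE, n = 5 and 5) of F344. Its arrays ran from 48.4% to 72.8% of the F344 mean, and 4 of the 5 lay above 227.7, which is 50% of that mean. The mean of both parents was 232.1, and F1 stood at 122% of it. On the log2 scale F1 was lower than F344 by a change of -0.69. As a description, the 95% interval of this fold, F1 over F344, was 0.481 to 0.799, which includes 50%. Against the F344 pool, F1 was at 57.5%, with 4 of 5 arrays above 50% of the pool's signal. The rule for the gene names this comparison, so it carries no test. The F1 mean lay 55.8 signal units above the 50% level.

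Lower values in F1 than in F344 were common on this array. Of 5039 probe sets that passed a filter on low values, 555 (11.0%) had a lower ratio of F1 to F344 than Hs6st1, and 5.22% had a ratio below 50%. The median ratio was 105%, with the middle of the distribution from 80.3% to 132%. Between F1 and F344, 31.7% of tested probe sets passed limma's test at an adjusted p of 0.05 (16.3% higher and 15.4% lower in F1). Markers moved with the hybrid as well: 7 basal epithelial and smooth muscle markers summed to 11136 to 13476 in F1, against 6747 to 8164 in F344. The 6 fibroblast markers summed to 37412 to 55090 in F1, against 27494 to 30675 in F344, but not all of them were higher. In limma's test Col1a2 (log2 change 0.82) and a probe set each of Col1a1 (0.88) and Dcn (0.997) were higher in F1. The other tested probe sets of Col1a1 and Dcn, and those of Col3a1, Lum and Pdgfra, did not pass (-0.63 to 0.18). The 10 skeletal muscle markers summed to 250 to 3215 in F1, against 4903 to 24787 in F344. The 8 luminal markers overlapped, at 5297 to 8473 in F1 and 4900 to 6884 in F344. The part of these markers in the F1 level of Hs6st1 was not tested.

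Other probe sets with Cop below the floor give a frame for the hybrid. Besides Hs6st1, 3 probe sets had all 5 Cop arrays below the floor and all 5 F344 arrays above the overall median, and 0 had the reverse. These belonged to Fgg, which encodes a chain of fibrinogen, Ephx2, the soluble epoxide hydrolase, and Spock2, a proteoglycan core protein. As a share of F344, F1 stood at 43.6% ± 15.7 for Fgg, 24.8% ± 4.52 for Ephx2 and 60.8% ± 8.36 for Spock2 (SE, n = 5 and 5). F1 was above the floor on all of its arrays for each of the 4 probe sets. Spock2 and Hs6st1 were the closest pair among them, and Ephx2 lay well below 50%. These probe sets were chosen by their values, so the numbers are descriptions.

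**Figure D2:**
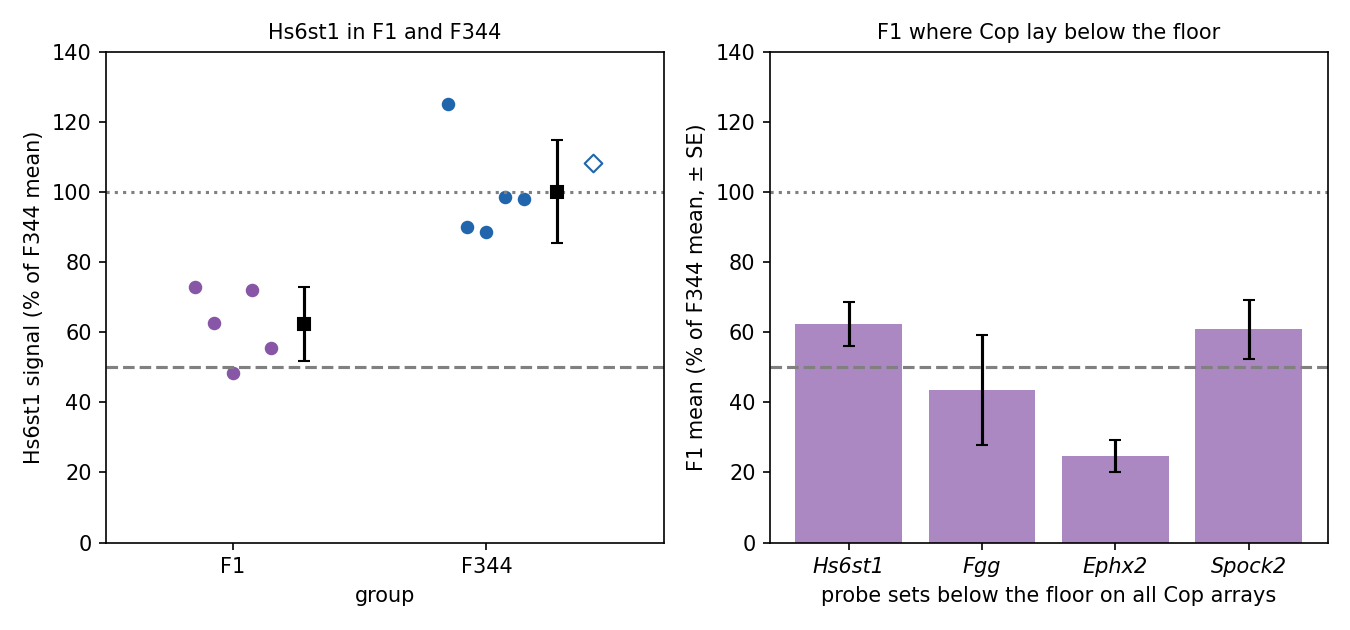
Left, Hs6st1 signal as a percentage of the F344 mean in F1 and F344 (points, single arrays; squares with bars, mean and SD; open diamond, F344 pool). Right, the F1 mean as a percentage of the F344 mean with its SE for the 4 probe sets below the floor on all Cop arrays; the dashed lines mark 50%, and Hs6st1 stands at 62.2%.

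The gene was chosen for its low level in Cop, and pairs of the other groups were tested with limma over all 5039 probe sets. F1 has a Cop parent, so its comparisons and their p-values are not independent of that choice. F1 was below ACI, BUF/N and WF, and ACI was above F344 and WF. Against ACI, F1 had a log2 change of -1.46 (SE 0.179, adjusted p = 1.84e-06), with 220.6 to 331.6 in F1 and 520.5 to 1071.5 in ACI. Against BUF/N the change in F1 was -0.98 (adjusted p = 0.000506) and against WF it was -0.82 (adjusted p = 0.0025). In all 3 comparisons every F1 array was below every array of the other strain. F1 also passed at 29.2% of all probe sets against ACI, at 17.3% against BUF/N and at 15.2% against WF. The 95% intervals of the fold, F1 over the other strain, were 0.283 to 0.470 for ACI, 0.394 to 0.655 for BUF/N and 0.439 to 0.730 for WF. None of these strains is a parent of F1, so no share of their level was set for the hybrid to be held against.

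F344 was lower than ACI by a log2 change of -0.77 (SE 0.179, adjusted p = 0.00523), in a comparison where 12.3% of probe sets passed. The groups overlapped, since F344 1 at 569.3 exceeded ACI 4 at 520.5. ACI was higher than WF by 0.64 (SE 0.179, adjusted p = 0.0261), where 7.18% of probe sets passed, again with overlap. That call ended without ACI 1 (adjusted p = 0.0651), ACI 2 (0.0829), ACI 5 (0.105), WF 1 (0.0866), WF 4 (0.0512) or WF 5 (0.0531). ACI 2 and ACI 5 had the highest median signals of the series, 102.1 and 101.8, against 77.4 to 81.2 on the other ACI arrays, and their ratios of 3' to 5' actin signal were 1.78 and 1.80, against 1.19 to 1.34. F1 2 and F1 3 correlated least with the other arrays of their own group. Without ACI 2, ACI 5, F1 2 and F1 3, both ACI calls missed the threshold (F344 against ACI -0.53, adjusted p = 0.0777; ACI against WF 0.40, adjusted p = 0.246). The part of these array differences in the Hs6st1 level of ACI was not tested.

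The remaining pairs did not pass. F344 stood at a log2 change of -0.29 from BUF/N (95% interval -0.65 to 0.08, adjusted p = 0.247, 23.8% of probe sets called). From WF it stood at -0.13 (-0.50 to 0.24, adjusted p = 0.686, 11.3% called). ACI stood at 0.48 from BUF/N (0.11 to 0.85, adjusted p = 0.0733, 13.7% called), and this passed without ACI 3 (adjusted p = 0.0339) or ACI 4 (0.019). BUF/N stood at 0.16 from WF (-0.21 to 0.52, adjusted p = 0.857, 2.22% called). In the order of levels, the neighbours F344 and WF, WF and BUF/N, and BUF/N and ACI therefore did not pass, and these intervals do not show that the levels were alike.

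**Figure D3:**
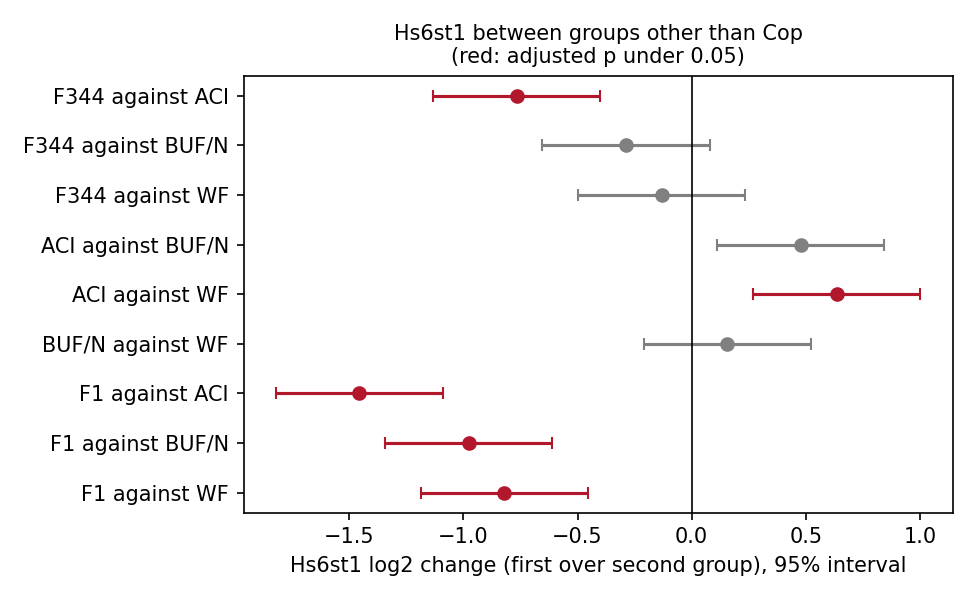
Log2 change of Hs6st1 for 9 pairs of groups other than Cop, first group over second, with 95% intervals from limma. Red points passed at an adjusted p of 0.05: F1 lies below ACI, BUF/N and WF, F344 lies below ACI, and ACI lies above WF.

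In the gene table of the GRCr8 rat assembly Hs6st1 lies on chromosome 9, with Uggt1 as the next gene. The 5 nearest genes on each side with a tested probe set were examined for Cop against F344. On 1 side they ran from 10 (Ptpn18) to 43 (Gsta1) protein-coding genes away, and on the other from 2 (Neurl3) to 22 (Unc50). Many genes in between were not tested. None of the 10 passed limma's test, where 3.45% of all probe sets did (1.69% higher and 1.77% lower in Cop), and 1 had an unadjusted p under 0.05 (Ptp4a1, a tyrosine phosphatase). Their log2 changes ran from -0.60 for Prim2, a subunit of DNA primase, to 0.27 for Ptp4a1. Neurl3, an E3 ubiquitin ligase gene and the nearest tested one, is the second protein-coding gene on its side. It had signals of 60.2, 82.1, 62.2, 82.2 and 113 in Cop, against 114.3, 97.7, 95.1, 128 and 97 in F344. Its log2 change was -0.44 (SE 0.233, adjusted p = 0.413), with 4 of 5 Cop arrays below all F344 arrays. Against ACI, where 7.6% of probe sets passed, Neurl3 was the 1 neighbour called, lower in Cop by a log2 change of -0.80 (adjusted p = 0.0324). Against BUF/N, where 23.3% of probe sets passed, 4 of the 10 were called: Ptp4a1 and Gsta1 were higher in Cop, and Ptpn18, another tyrosine phosphatase, and Unc50 were lower. The other tested probe sets of Gsta1 gave 0.54 (adjusted p = 0.058) and 0.0014 (0.999) there and did not pass. Against WF 0 of the 10 were called in limma's test, where 12.8% of probe sets passed, and 0 were at an unadjusted p under 0.05. In limma's test 0 of the 10 were apart in Cop, which means passing in the same direction against each of the other 4 inbred strains, where 0.714% of all probe sets were, and 0 were so at an unadjusted p under 0.05.

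Between F1 and F344, 4 of these 10 genes were lower in F1 and 0 higher, where 31.7% of all probe sets passed, so the share was close to the background. They were Gsta1, a glutathione transferase (-1.79), Prim2 (-1.50), Cox5b, a subunit of cytochrome oxidase (-1.23), and Ptp4a1 (-0.54). The other tested probe set of Prim2 gave 0.23 and did not pass. The Gsta1 probe sets may share sequence with close copies in the same gene family.

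**Figure D4:**
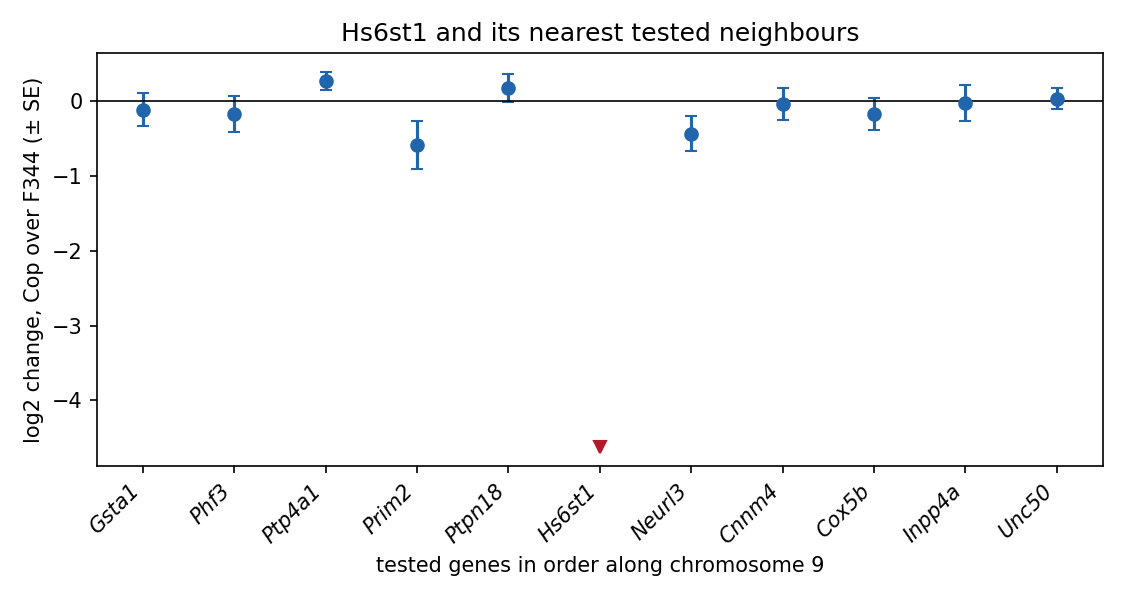
Log2 change, Cop over F344, of Hs6st1 and of the 5 nearest tested genes on each side in their order along chromosome 9 (bars, SE). Hs6st1 is drawn as a triangle at -4.63 because Cop lies at the floor, so that the value is a limit; the neighbours lie between -0.60 and 0.27.

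Few other genes of heparan sulfate modification were on the array. Of 15 listed enzymes of this step 1 was measured, Ndst1, which carries out N-sulfation, and the related genes Hs6st2 and Hs6st3 had no probe set with their symbol. Ndst1 was dim, with 28.1, 64.3, 50.8, 57.8 and 46.5 in Cop, against 57.5, 37.5, 40.4, 65 and 86.3 in F344. The groups overlapped (log2 change -0.20, SE 0.310, adjusted p = 0.865). In F1 it was at 49.7 ± 19.9 (SD, n = 5), close to both parents. Against BUF/N, Ndst1 was lower in Cop, at 49.5 ± 13.8 in Cop and 95.8 ± 20.5 in BUF/N (SD, n = 5 each; log2 change -0.98, adjusted p = 0.0218), with no overlap, and it did not pass in Cop against ACI or WF.

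Over all heparan sulfate genes, 64 were listed, 20 measured and 15 tested. Between Cop and F344, 1 was lower in Cop and 0 higher, where 3.45% of all probe sets passed, and the median log2 change was -0.06 against 0.03 over all tested probe sets. The gene that passed was Spock2, with 7.3, 17.3, 9, 13.2 and 8 in Cop, against 137.6, 98.3, 108.8, 109.4 and 107.9 in F344. Every Cop array was below the floor for it, so its log2 change of -2.61 (adjusted p = 6.42e-08) is a limit. Unlike Hs6st1, Spock2 was low in other strains as well, at 23.8 ± 13.2 in ACI and 22.2 ± 14.8 in WF, with 97.2 ± 19.8 in BUF/N (SD, n = 5 each). The Cop pool was at 25.9 for Spock2 and the F344 pool at 92.4. Without Cop 3 or Cop 5, 2 genes passed between Cop and F344.

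The count of heparan sulfate genes called in Cop was larger against BUF/N and WF. Against BUF/N, 2 of the 15 were higher in Cop and 6 lower (53.3%, against 23.3% of all probe sets), with a median log2 change of -0.39 against -0.07 over all. Against WF, 1 was higher and 4 were lower (33.3%, against 12.8% of all), with a median of -0.40 against -0.05 over all. Lower in Cop in both comparisons were Sdc1, the syndecan Sdc4, Agrn and Papss1, and Srgn was higher in both. The other tested probe set of Agrn passed in neither, at -0.26 against BUF/N (adjusted p = 0.379) and -0.41 against WF (0.203). Against BUF/N, Ndst1 and Spock2 were also lower and Gpc3, a glypican, was also higher. Against ACI, 0 were higher and 1, Sdc1, was lower (6.67%, against 7.6% of all). The luminal marker sum, at 2622 to 4836 in Cop, was 7418 to 8959 in BUF/N and 7268 to 9115 in WF, and its part in these counts was not tested.

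The donor enzymes of sulfation did not pass between Cop and F344. Papss1 and Papss2, which make the sulfate donor PAPS, had log2 changes of -0.13 (adjusted p = 0.746) and -0.43 (0.324). Papss1 was lower in Cop than in BUF/N (-0.52, adjusted p = 0.00259) and WF (-0.40, 0.0275). Ugdh, which makes the glucuronate donor, had 0.25 (0.716). Of the core proteins other than Spock2, Sdc1, the main syndecan of epithelia, had the next lowest value, at 291 ± 159 in Cop and 522 ± 66 in F344 (SD, n = 5 each) (adjusted p = 0.0643). It was lower in Cop than in ACI (log2 change -1.34, adjusted p = 0.0061), BUF/N (-1.14, 0.00716) and WF (-1.37, 0.00237), where 7.6%, 23.3% and 12.8% of probe sets passed. Its other probe set did not pass in Cop against F344 (-0.63, adjusted p = 0.234) or ACI (-0.69, 0.0964). That probe set passed against BUF/N (-1.01, 0.0047) and WF (-1.25, 0.00114). Sdc1 was singled out after its values were seen. The luminal marker sum given above was also lower in Cop, and its part in the Sdc1 level was not tested. Of the 15 genes 0 were apart in Cop from all 4 inbred strains in limma's test, where 0.714% of probe sets were, and 1 was so at an unadjusted p under 0.05, which was Sdc1. Without Cop 3 or Cop 5 that count was 1.

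Between F1 and F344, 2 of the 15 heparan sulfate genes were higher in F1 and 2 lower, which is 26.7% against 31.7% of all probe sets, and the median log2 change was 0.10 against 0.03 over all. Ugdh was higher (log2 change 0.88, adjusted p = 0.00468), with 1495 and 1257 in F1 2 and F1 3 and 598.3 to 760.5 on the other F1 arrays, against 398.2 to 618.7 in F344. Agrn, the heparan sulfate proteoglycan agrin, was higher by 0.55 (adjusted p = 0.0202). Srgn, the proteoglycan of secretory granules of blood cells, was lower by -0.61 (adjusted p = 0.011) and Spock2 by -0.76 (adjusted p = 0.033). Without F1 2, F1 3, ACI 2 and ACI 5, the calls of Ugdh (adjusted p = 0.106), Agrn (0.225) and Spock2 (0.122) ended. The Agrn call also ended without F1 2 (adjusted p = 0.0669), F1 3 (0.0719) or F344 5 (0.0552). That of Spock2 ended without F1 3 (0.128), F344 1 (0.0778), F344 3 (0.0544), F344 4 (0.0527) or F344 5 (0.0563). Without F1 3 or F344 5, 2 of the 15 passed.

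**Figure D5:**
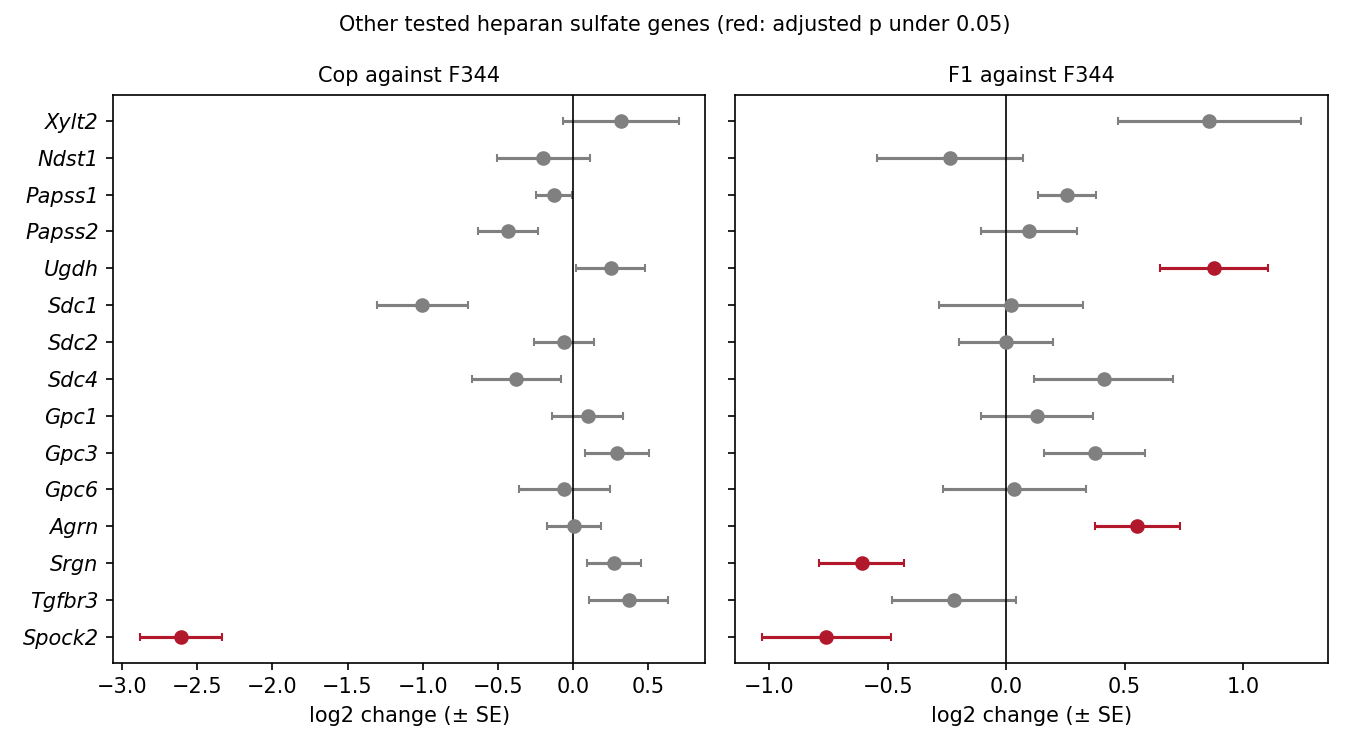
Log2 change (± SE) of the 15 other tested heparan sulfate genes in Cop against F344 (left) and F1 against F344 (right). Red points passed at an adjusted p of 0.05: Spock2 on the left, and Ugdh, Agrn, Srgn and Spock2 on the right.

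Ligands and receptors that bind heparan sulfate, with FGF feedback genes, numbered 37, of which 22 were tested. Between Cop and F344, 1 was higher and 1 lower (9.09%, against 3.45% of all probe sets), with a median log2 change of 0.02 against 0.03 over all. A probe set of Lpl not used for this count was also higher in Cop in limma's test (0.43, adjusted p = 0.027). Pf4, the platelet chemokine that binds heparin, had 823.3, 1025, 1015.1, 1243.1 and 800.2 in Cop, against 457, 471.9, 493, 358.9 and 287.5 in F344 (log2 change 1.26, SE 0.171, adjusted p = 8.84e-06). The groups did not overlap. In limma's test Pf4 was the 1 gene of the 22 apart in Cop, where 0.714% of all probe sets were. At an unadjusted p under 0.05, 3 of the 22 were so: Fgfr2, Pdgfa and Pf4. Without Cop 4, Cop 5, WF 1 or WF 2, 2 genes of this list were apart in Cop. In F1 Pf4 lay between the parents, higher than F344 by 0.62 (adjusted p = 0.0076). The macrophage marker sum given above overlapped F344 alone among the inbred strains and was otherwise higher in Cop, and its part in the Pf4 level was not tested. Over the same 22 genes, 1 was higher and 1 lower in Cop against ACI (9.09%, against 7.6% of all), 2 and 2 against BUF/N (18.2%, against 23.3%), and 3 and 3 against WF (27.3%, against 12.8%).

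Fgfr2, a receptor of fibroblast growth factors that is needed for mammary duct growth in mice, was lower in Cop on its brightest probe set. It had 98.2, 85.1, 74.4, 124.4 and 126.8 in Cop, against 195.5, 156.1, 192.2, 188 and 138.8 in F344 (log2 change -0.79, SE 0.212, adjusted p = 0.0297). No Cop array reached the lowest F344 array, but the pools hardly differed, at 118.9 for Cop and 123.8 for F344. The other 2 probe sets of Fgfr2 gave -0.75 (adjusted p = 0.0987) and -0.36 (0.23). The call ended without Cop 1 (adjusted p = 0.0593), Cop 2 (0.0925), Cop 3 (0.0958), F344 1 (0.0836), F344 3 (0.0693) or F344 4 (0.0787), which left 1 gene of the list. In limma's test the brightest probe set was also lower in Cop than in ACI (-0.70, adjusted p = 0.0387) and WF (-0.92, 0.00374). In these comparisons 7.6% and 12.8% of all probe sets passed. It missed the threshold against BUF/N (-0.57, 0.0516). Another Fgfr2 probe set also passed against ACI (-0.83, 0.0362) and WF (-0.75, 0.0426), and the remaining one passed against neither. The luminal marker sum was lower in Cop as well, and its part in the Fgfr2 level was not tested. The ligands Fgf1, Fgf2, Fgf7 and Fgf10 had log2 changes from -0.08 to 0.17 and did not pass, and neither did the feedback genes Spry1 (-0.68, adjusted p = 0.175) and Dusp6 (0.05, 0.955).

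Between F1 and F344, 1 of the 22 was higher and 3 were lower (18.2%, against 31.7% of all probe sets), with a median log2 change of -0.27 against 0.03 over all. The lower ones were Kdr, a VEGF receptor of endothelium (-1.08, adjusted p = 0.00149), Tfpi, an inhibitor of coagulation (-0.79, adjusted p = 0.00327), and Met, the receptor of hepatocyte growth factor (-0.62, adjusted p = 0.0335). A further Met probe set gave 0.10 and did not pass, and the Met call ended without F1 1, F1 2, F1 4, F344 1, F344 2, F344 4 or F344 5 (adjusted p from 0.0529 to 0.106). Some probe sets not used for the counts also passed limma's test. For Vegfa the change was -1.29 (adjusted p = 0.00778), and for Lpl the changes were -1.04 (0.000492) and 0.31 (0.0397). The sum of 4 endothelial markers, of which Kdr is one, was 319 to 513 in F1, against 502.3 to 630 in F344, and Vwf was below the floor on all F1 arrays. Tpst2, the 1 tested gene of the other Golgi sulfotransferases, had 0.15 in Cop against F344 (adjusted p = 0.74) and did not pass in F1 against F344 either (adjusted p = 0.992).

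The probe sets whose pattern was most like that of Hs6st1 over the 30 single-sample arrays were those of Abi2, a cytoskeletal adaptor (Pearson r = 0.84), Msx1, a homeobox gene (0.82), and P2rx4, a purinergic receptor (0.81). Lbp, the lipopolysaccharide binding protein (0.74), Mgp, the matrix Gla protein (0.74), and Synj2, a phosphoinositide phosphatase (0.73), followed, out of 4200 probe sets compared. All 6 were lowest in Cop by group mean, and none was near the floor there: Abi2 averaged 93 in Cop, 134 in F1 and 156 in F344, and Mgp 1120, 3098 and 2356. The most opposite were Lsamp, a neural adhesion gene (-0.81), Ginm1 (-0.77), Gstt2, a glutathione transferase (-0.77), and Car3, the carbonic anhydrase of fat and muscle (-0.75). These r values are descriptions, since the Cop arrays set them and arrays of a strain share it.

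Without the Cop arrays, a choice made after seeing the data, the order over 25 arrays was another. Il13, an interleukin (0.80), Abi2 (0.79) and Ankra2, an ankyrin repeat gene (0.78), were then most like Hs6st1, followed by Map6, a microtubule stabilizer (0.76), Nfia, a transcription factor (0.76), and Pdp2, a mitochondrial phosphatase (0.75). Il13 was a dim probe set, at 12.1 in F1 and 108 in ACI. The most opposite were the small GTPases Rab7a (-0.85) and Ralb (-0.82), then Cst3, cystatin C (-0.79), and Aplp2, an amyloid precursor-like gene (-0.77). Abi2 was the 1 gene in both sets of most similar genes. Among the groups left, all of the most similar genes were lowest in F1 and highest in ACI by group mean, as was Hs6st1. These r values are descriptions too, since arrays of a group share its strain.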

How the data were processed

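One-colour Affymetrix arrays were hybridised with biotinylated cRNA from 5 µg of total RNA of normal rat mammary gland, 1 array per sample. Per the labels, the authors computed the deposited values, linear signal intensities, with Affymetrix Microarray Suite 5.0. Trimmed means of 249.99 to 250.58 on all 32 arrays show that each array had been scaled to a common target, and medians ran from 65.8 to 102.1. No detection calls or probe sequences were used, so the floor stands in for a detection limit, and precision is limited by how many arrays there are.

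Symbols came from the supplied platform table and, for 6994 of 7018 probe sets with 1 symbol, from the RefSeq gene table matched by identifier. Signals below 18.3, the 25th percentile of the 30 single-sample arrays, were set to that floor before log2 transformation. Probe sets with at least 5 arrays above the median of 78.4 were tested (5039). For each probe set a mean per group was estimated in limma 3.58.1 (R 4.3.3, variance trend), and p-values were adjusted by Benjamini-Hochberg within each contrast at 0.05. "Apart in Cop" means passing against each of F344, ACI, BUF/N and WF in the same direction. Ratios to F344 use deposited signals. A gene stands for its tested probe set with the highest mean signal. Named were all genes of heparan sulfate modification that were measured, list genes that passed in Cop against F344 or F1 against F344 or were apart in Cop, the 5 nearest tested genes on each side, and the 6 most and 4 least similar probe sets; further list genes, Fgg and Ephx2 were named after their values were seen. Hs6st1 and the lists were chosen with earlier results of these data known. The fit was tested on simulated data. Pools stayed outside the fits. No 2 arrays were identical (0 pairs). Equal sample numbers did not pair the arrays: of 75 pairs with the same number in 2 groups, 16 had deviations correlated above 0.1 (median r -0.02), and 6 of 30 arrays were closest to their own number.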

Additional observations from a re-analysis of the deposited data

Results flagged for a closer look

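In groups of 5 arrays, 10 of 126 combinations of gene and group held an array far from the other 4, where chance flags about 1 in 20. For Hs6st1 this was F344 1, at 569.3 with the next array at 449.1; without it F1 stood at 66.4% of F344. F344 1 was also far above the others for Spock2 (137.6, next 109.4). F1 5 was far above the others for Prim2 (56.4, next 33.7) and for Ptp4a1 (1474.5, next 1051.9). Cop 1 was low for Prim2 (42.9, next 64.5) and high for Gsta1 (1346.3, next 1090.5), and Cop 2 was high for Inpp4a, an inositol phosphatase gene (171.9, next 122.4). ACI 5 was low for Ndst1 (36.2, next 77.7) and high for Phf3, a PHD finger gene (183, next 120.6). F344 2 was high for Cnnm4, a magnesium transporter gene (90.3, next 64.1).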

How the results depend on the processing

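F1 stood at 57.5% to 66.8% of F344 under 6 other settings and at 59.6% to 66.4% when any 1 array of either group was left out. The lower Hs6st1 level of F1 passed against ACI, BUF/N and WF under all 13 other settings and with each array left out, with adjusted p up to 0.046 for WF, whose log2 change ran from -0.82 to -0.62 under the other settings. With replicate number as a block (the replicate block), F1 against WF was -0.82 (adjusted p = 0.00506) and no Hs6st1 call changed. ACI against WF missed the threshold with the floor at the 10th percentile (0.64, adjusted p = 0.0548), centring on the median (0.52, 0.0604), array weights (0.43, 0.131), only these groups (0.64, 0.135) and without F1 2, F1 3, ACI 2 and ACI 5 (0.40, 0.246), and ran from 0.52 to 0.78 with 1 array left out. ACI against BUF/N ran from 0.36 to 0.62 with 1 array left out. F344 against ACI was -0.53 without those 4 arrays. F344 against WF, never called, was 0.0093 with centring. The cause of these changes was not tested.

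For counts of genes, the number of heparan sulfate genes called in Cop against F344 was 1, but 0 with a filter of 15 arrays, 2 with array weights, with the pools as sixth samples or without those 4 arrays, and 1 to 2 with 1 array left out. Apart in Cop it was 0, but 1 with array weights, the pools, only the inbred strains or without those 4 arrays, and 0 to 1 with 1 left out. In F1 against F344 it was 4, but 2 without those 4 arrays and 2 to 5 with 1 left out. For ligands and receptors, Cop against F344 gave 2, but 4 with array weights or only these groups and 1 to 2 with 1 left out. Apart in Cop gave 1, but 2 with array weights, the pools or only the inbred strains, and 1 to 2 with 1 left out. No neighbour was called in Cop against F344 in any of these fits. Met in F1 against F344 kept its call under 9 of 13 other settings and in 3 of 10 fits with 1 array left out.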
